A study of Mus musculus with 4 samples.

Results

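The open-chromatin intervals of Cho replicate 1 that had no counterpart in either the WT or the deletion library numbered 14085 of 74450 autosomal intervals in that list (18.9%). They were chosen by position on the mm9 genome. Each overlapped no WT interval and no deletion interval by even 1 bp, and each interval was represented by its highest fold enrichment, the ratio of summit pileup to background with 1 tag added to both. They were compared with 43610 Cho replicate 1 intervals that overlapped both libraries, and 16755 overlapped 1 of them, 166 in WT alone and 16589 in the deletion library alone. The 4 lists of the series held 485134 intervals. Of these, 76242 were in Cho replicate 1, 90971 in WT, 169591 in the deletion library and 148330 in Cho replicate 2. Because membership was decided by whether a peak had been called, strength and presence in WT or the deletion library are described here without a test.

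All 4 ATAC-Seq libraries came from mouse rib cartilage and are labelled primary chondrocyte. WT and E160(delta/delta);E308(delta/delta), which lacks 2 enhancers upstream of Sox9, had 1 library each and were made from newborn littermates. Cho had 2 libraries with no genotype in the labels. The cells were released with collagenase and used at early passage, so a library is a bulk culture, in which fewer cells with an open site and less opening per cell cannot be told apart.

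The label was checked at marker promoters, as a summit within 1 kb of a transcription start site (TSS). For Cho replicate 1 only the highest summit of each interval was looked up, but for the other lists every summit was. A promoter interval of Cho replicate 1 whose highest summit lay farther away therefore counts as none here, so absences in that list may come from the lookup. Cho replicate 1 had one at Sox9 (fold enrichment 18.6), Col2a1 (4.65), Col11a1 (20.3) and Hapln1 (11.0), but at none of Acan, Col9a1, Matn1 and Comp. Comp had none in any list, and the other 3 had one in WT, the deletion library and Cho replicate 2. All of the fibroblast collagens Col1a1, Col1a2 and Col3a1 were called in Cho replicate 1, as was the endothelial gene Pecam1 (7.18), which had 8.31 in WT, 16.5 in the deletion library and no summit in Cho replicate 2. The muscle gene Myod1 had none in Cho replicate 1 but 5.15 in WT, 6.76 in the deletion library and 7.73 in Cho replicate 2. Promoters of Myog, Ptprc, Spi1, Cdh5, Krt5 and Krt14 had no summit in any list. The part of other cell types in the membership was not tested.

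In ATAC-Seq, the Tn5 transposase inserts sequencing adapters where DNA is not wrapped tightly around nucleosomes. Promoters tend to be open in most cell types, whereas distal elements are opened by transcription factors such as AP-1, RUNX, TEAD and SOX proteins and differ between cell states. CTCF sites, which anchor chromatin loops, are open in most cells. A peak caller reports a site only where tags exceed background, so a weakly open site can be called in some libraries and missed in others.

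The strongest members of 3 kinds are printed first, so that the results below can be read beside them. They are 2 each from all members, from those near a TSS and from those with a Cho replicate 2 summit at the same place. Each sequence holds 100 bases of mm9 on either side of the summit, on the plus strand and 5′ to 3′, with capitals for matches on either strand to the AP-1 letters TGANTCA, the RUNX letters TGTGGT, the SOX letters ACAATG or the TEAD letters GGAATG. The intervals at Chst2 (chr9:95216748-95217739) and Scn2a1 (chr2:65560264-65560878) had the highest fold enrichments of all members. Chst2 encodes a carbohydrate sulfotransferase, and its member was intergenic, 90266 bp downstream of the TSS. The Scn2a1 member was intronic, 101666 bp into that sodium channel gene.
Chst2: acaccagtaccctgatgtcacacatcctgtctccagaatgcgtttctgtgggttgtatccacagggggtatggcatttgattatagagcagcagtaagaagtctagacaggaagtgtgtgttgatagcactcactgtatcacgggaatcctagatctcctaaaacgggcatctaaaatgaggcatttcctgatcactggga
Scn2a1: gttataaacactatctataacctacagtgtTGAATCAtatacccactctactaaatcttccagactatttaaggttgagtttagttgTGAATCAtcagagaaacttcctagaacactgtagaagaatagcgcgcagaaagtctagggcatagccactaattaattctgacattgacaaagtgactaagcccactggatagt
The Scn2a1 window held 2 AP-1 matches, and the Chst2 window held no match to these 4 motifs. The strongest members within 1 kb of a TSS lay at -883 bp from the TSS of Hhipl1 (chr12:109543233-109543978) and at -687 bp from that of Apold1 (chr6:134931030-134932095), where minus means upstream.
Hhipl1: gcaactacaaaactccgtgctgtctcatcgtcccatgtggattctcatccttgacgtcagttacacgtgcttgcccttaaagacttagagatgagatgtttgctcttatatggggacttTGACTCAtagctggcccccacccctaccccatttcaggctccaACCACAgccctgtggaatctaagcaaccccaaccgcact
Apold1: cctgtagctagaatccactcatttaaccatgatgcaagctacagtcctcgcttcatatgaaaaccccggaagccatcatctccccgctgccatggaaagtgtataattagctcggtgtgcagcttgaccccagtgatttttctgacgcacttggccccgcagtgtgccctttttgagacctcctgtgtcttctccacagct
The Hhipl1 window held 1 AP-1 and 1 RUNX match. The strongest members with a Cho replicate 2 summit at the same place were nearest to Gm6219 (chr14:106416476-106417288) and Shq1 (chr6:100459515-100460545). Both were intergenic.
Gm6219: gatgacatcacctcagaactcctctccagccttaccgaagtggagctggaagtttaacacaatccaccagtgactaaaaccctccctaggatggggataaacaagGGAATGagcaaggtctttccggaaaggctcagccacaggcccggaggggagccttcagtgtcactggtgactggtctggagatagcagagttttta
Shq1: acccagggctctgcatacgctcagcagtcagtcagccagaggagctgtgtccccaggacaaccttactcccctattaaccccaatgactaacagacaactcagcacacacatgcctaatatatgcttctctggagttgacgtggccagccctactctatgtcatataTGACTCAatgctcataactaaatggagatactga
The Gm6219 window held 1 TEAD match and the Shq1 window 1 AP-1 match.

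Members were weaker and narrower than intervals found in both. Their median fold enrichment was 4.65 (25th to 75th percentile 3.80 to 5.91), against 8.45 for intervals found in both (5.49 to 14.4). A single background of 1.37 tags accounted for every interval of this list, so with 1 added to pileup and background 1 tag was worth 0.422 of fold enrichment and the median summit pileup was 10 tags in members and 19 tags in intervals found in both. The lowest member had 6 tags and the highest 85. The median width was 287 bp in members, 349 bp in intervals found in 1 library and 508 bp in intervals found in both. At a fold enrichment under 4 the median widths were 223 bp, 231.5 bp and 246 bp in the same order. From 10 to 15 they were 500 bp, 504 bp and 637.5 bp. More than 1 summit was called in 2.08% of members (95% exact binomial interval 1.85% to 2.33%) and in 18.03% of intervals found in both (17.7% to 18.4%). These and the following intervals cover counting error only, and with 1 library behind each list no value has a replicate error.

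The share of intervals absent elsewhere fell with strength in every bin, as the plot by fold enrichment shows. Below a fold enrichment of 4, 4162 of 10742 intervals were members (38.7%). The share was 27.8% from 4 to 6, 14.1% from 6 to 10, 5.37% from 10 to 15 and 2.23% from 15 to 20. At 20 or more it was 0.477%, or 30 of 6284 intervals (0.322% to 0.681%). Among intervals found in both, those at 20 or more in Cho replicate 1 had a median fold enrichment of 13.7 in WT and 14.4 in the deletion library, and 9 in 10 of them exceeded 7.19 and 9.10.

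**Figure D1:**
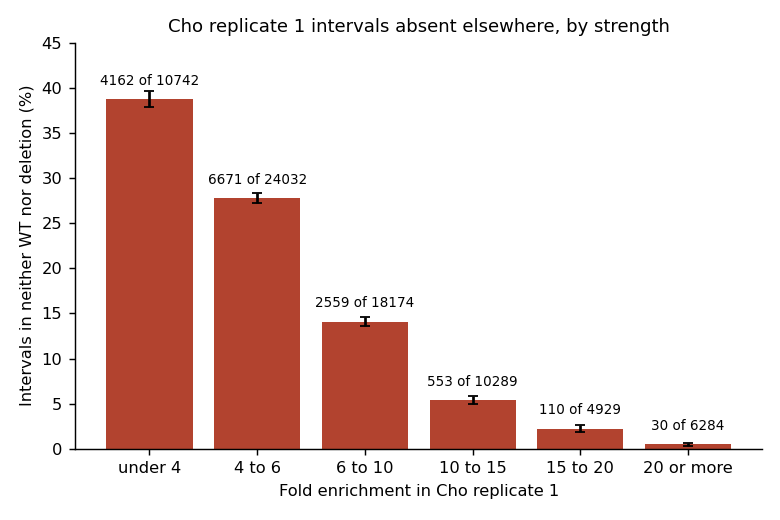
Percent of autosomal Cho replicate 1 intervals that overlap no WT and no deletion interval (y axis) in bins of fold enrichment (x axis), with 95% exact binomial intervals as bars and counts above them. The share drops from 38.7% in the weakest bin to 0.477% in the strongest.

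The 12 strongest members had fold enrichments from 24.5 to 36.3. The Chst2 member reached 36.3, with 85 tags over a width of 992 bp, and its nearest deletion interval lay 5675 bp away. The Scn2a1 member reached 33.4, with 78 tags over 615 bp. A member with 74 tags and a fold enrichment of 31.7 lay at -111559 bp from the TSS of Gm9808 and 1983 bp from the nearest deletion interval. Others lay nearest to 1190002N15Rik (27.9), Mpzl1 (26.2), Zpld1 (26.2), Gm6219 (25.8), Mdga2 (25.3), Plod2 (25.3), Pitrm1 (24.5) and Lrrtm1 (24.5). Plod2, a lysyl hydroxylase that modifies collagen, had its TSS 588550 bp away. Each of the 12 summit windows was single-copy in mm9. A Cho replicate 2 summit was found at the same place for 1 of them, Gm6219.

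The median gap to the nearest WT or deletion interval was 2163 bp. It was at most 500 bp for 18.8% of members and at most 5 kb for 70.4% (69.6% to 71.2%), and 1321 members (9.38%) had none within 20 kb. The median fold enrichment was 4.22 at a gap of at most 500 bp and 5.07 beyond 20 kb, and the share with a fold enrichment of 10 or more was 1.96% and 7.57%. At the boundary of the rule, members at Mgmt, Dcc and Fyn adjoined a deletion interval with a gap of 0 bp (fold enrichments 3.80, 3.80 and 3.38), and intervals at Cdyl, Nfib and Clec2g fell outside the set through an overlap of 1 bp (3.80, 3.38 and 3.38). Of all members 49 lay within 10 bp of a WT or deletion interval, and 55 non-members overlapped one by at most 10 bp.

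Promoters were few among the members. The summit lay within 1 kb of a protein-coding TSS in 724 members (5.14%, 4.78% to 5.52%), against 24.8% of intervals found in both (24.4% to 25.2%) and 16.6% of all autosomal intervals. Such positions made up 1.69% of sequenced autosomal bases. The share was 4.78% in intervals found in 1 library, whose median fold enrichment was 5.49. At matched strength the shares also differed: at a fold enrichment under 4 the TSS share was 8.55% in members and 12.6% in intervals found in both, and from 10 to 15 it was 1.63% and 29.7%. The median distance to a TSS was 44010 bp in members and 19864.5 bp in intervals found in both. Beyond 100 kb lay 31.1% of members and 17.8% of intervals found in both. By place, 48.3% of members were in introns (38.2% in both), 47.5% were intergenic (48.7%), 2.03% lay in UTRs (9.94%) and 2.21% in coding exons (3.21%).

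**Figure D2:**
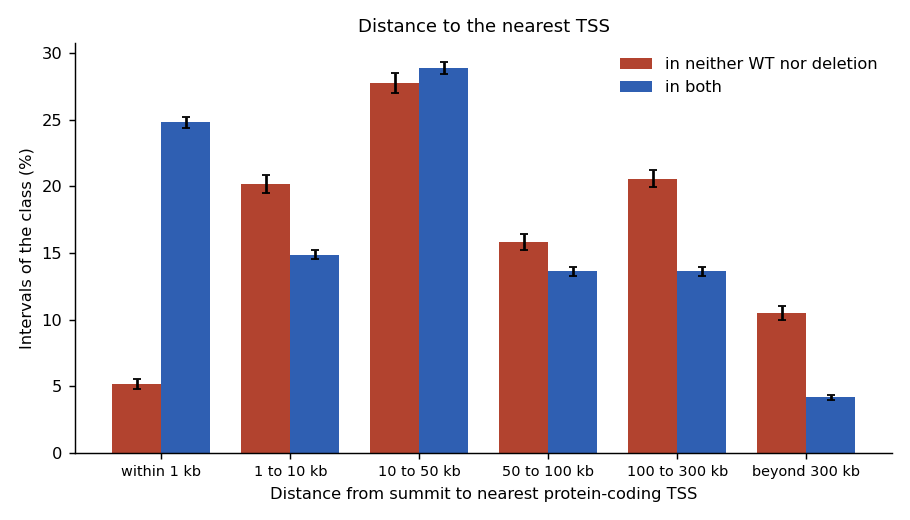
Percent of intervals of each class (y axis) by distance from the summit to the nearest protein-coding TSS (x axis), with 95% exact binomial intervals. Within 1 kb are 5.14% of the intervals absent elsewhere and 24.8% of those found in both, while the first class has the larger share from 1 to 10 kb and beyond 50 kb.

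The promoter members lay mostly beside promoter intervals found in all 3 lists. They belonged to 703 genes, of which 471 (67.0%) also had an interval found in both within 1 kb of the TSS. The summit lay 500 to 1000 bp from the TSS in 72.4% of them, against 11.6% of promoter intervals found in both, and 73 lay within 200 bp. A WT or deletion interval stood within 500 bp of 73.5% of promoter members and of 15.9% of distal ones. Their median fold enrichment was 4.22, against 12.2 for promoter intervals found in both.

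The strongest promoter members had fold enrichments from 10.1 to 15.6. Hhipl1 and Apold1 each had 36 tags, as did Gm10716, whose window occurred at a median of 11 copies in the genome and is therefore uncertain. Gm5068 followed with 34 tags, 872 bp downstream of its TSS but in intergenic sequence, and Znhit3, a zinc finger gene, with 33 tags, at -776 bp. The member at Flrt2, a gene for a fibronectin leucine-rich transmembrane protein, had 30 tags and lay at -61 bp from the TSS, with a deletion interval 511 bp away. Nr2f1, an orphan nuclear receptor gene, and Tlr9, an innate sensor of DNA, had 28 tags each, at -802 and -681 bp. Snapc2 (27 tags) and Rgs17 (23 tags) completed the list. Of these 10, Znhit3 and Nr2f1 had a Cho replicate 2 summit within 150 bp of the same position.

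Cho replicate 2 was not used to choose the members, so it provides the check of whether a member was found again in cells of the same label. Its positions belong to the mm10 genome, so summits were compared by signed distance from the TSS of the same gene symbol in each build, with a tolerance of 150 bp. A match was found for 1091 of 14085 members (7.75%, 7.31% to 8.20%), against 44.2% of all autosomal intervals. In intervals found in both the share was 59.2% (58.8% to 59.7%), and in those found in 1 library 35.5% (34.8% to 36.3%). When the positions were displaced by 5 kb, 3.09% of members and 3.36% of intervals found in both still matched, which is the background measured the same way. Restricted to genes whose annotated length was equal in both annotations, the shares were 10.7% (displaced 3.29%) for members and 85.7% (displaced 3.28%) for intervals found in both. With 1 library on either side, the difference compares lists and not conditions.

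The match showed no rise with strength in members, as the plot of Cho replicate 2 matches shows. It was 8.41% below a fold enrichment of 4 and 7.35%, 7.82% and 7.96% in the next bins. It was 3.64% from 15 to 20 (4 of 110) and at 20 or more 3 of 30 matched (2.11% to 26.5%). When displaced by 5 kb, 3.29% of members matched below 4, 2.27% from 15 to 20 and 3.33% at 20 or more. In intervals found in both the match rose from 52.7% in the weakest bin to 65.2% in the strongest. Of the 693 members with a fold enrichment of 10 or more, 51 matched (7.36%, 5.53% to 9.56%), against 62.4% of 18274 intervals of that strength found in both. This limit of 10 was chosen after the values were seen. These strong members had a median width of 519 bp, 12 of them (1.73%) lay within 1 kb of a TSS against 35.5%, 278 (40.1%) had no WT or deletion interval within 5 kb, and 1 was repeated in the genome.

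**Figure D3:**
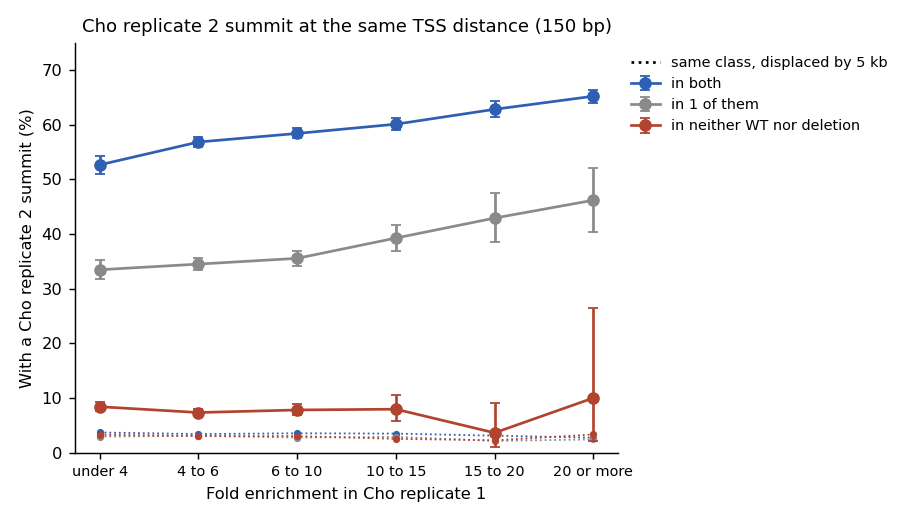
Percent of Cho replicate 1 intervals with a Cho replicate 2 summit within 150 bp of the same TSS distance (y axis) by fold enrichment in Cho replicate 1 (x axis), for each class, with 95% exact binomial intervals; dotted lines show the same intervals displaced by 5 kb. Intervals absent elsewhere reach at most 3 of 30 in any bin, while those found in both rise from 52.7% to 65.2%.

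Nearness to the other libraries moved with the match. It was 12.4% for members with a WT or deletion interval at most 500 bp away (displaced 3.54%), 10.3% from 500 bp to 1 kb (3.73%) and 7.42% from 1 to 5 kb (4.57%). It was 4.81% from 5 to 20 kb (0.772%) and 2.42% beyond 20 kb (1.66% to 3.40%, displaced 0.189%). Distance from the TSS moved with it too, from 11.5% within 1 kb to 3.18% beyond 300 kb while intervals found in both fell only from 63.5% to 53.8%. The Cho replicate 2 fold enrichment of matched members had a median of 4.45, against 15.2 for matched intervals found in both.

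The 10 strongest matched members had fold enrichments of 14.8 to 25.8 in Cho replicate 1 and of 3.34 to 6.76 in Cho replicate 2. Gm6219 had 25.8 and 4.06, and Shq1 had 22.0 and 3.49. Igkv1-115, an immunoglobulin light chain segment, had 21.1 and 5.75, with its nearest WT interval 308782 bp away. 4930431F12Rik had 44 tags in Cho replicate 1 and a fold enrichment of 6.76 in Cho replicate 2. The member nearest to the vitamin D hydroxylase gene Cyp2r1, in an intron of Pde3b, had 17.3 and 4.40. The others were nearest to Aknad1, Zdhhc21, Pcp4l1, Arrdc3 and the metalloreductase gene Steap4. When displaced by 5 kb, 3.09% of all members still matched, so a single match does not show that a member was found again.

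Members differed in base composition from intervals found in both. The GC content of the summit window, as printed above, had a median of 45.3% in members and 51.7% in intervals found in both. Among distal intervals, those beyond 1 kb from a TSS, it was 45.3% and 49.3%, and 46.3% in intervals found in 1 library. The gap was present in each bin of fold enrichment, from 45.3% against 49.8% below 4 to 45.3% against 49.3% at 20 or more. Over all intervals, promoters included, CpG dinucleotides numbered 2 at the median member and 4 at the median interval found in both. Among distal intervals the medians were 2 and 3. Repeated sequence was rare, at 65 members (0.461%, 0.356% to 0.588%) and 0.615% of intervals found in both. Simple repeats of at least 20 bases were found in 1.51% and 1.38%, and a word of the mitochondrial genome in 0 members and 8 intervals found in both.

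**Figure D4:**
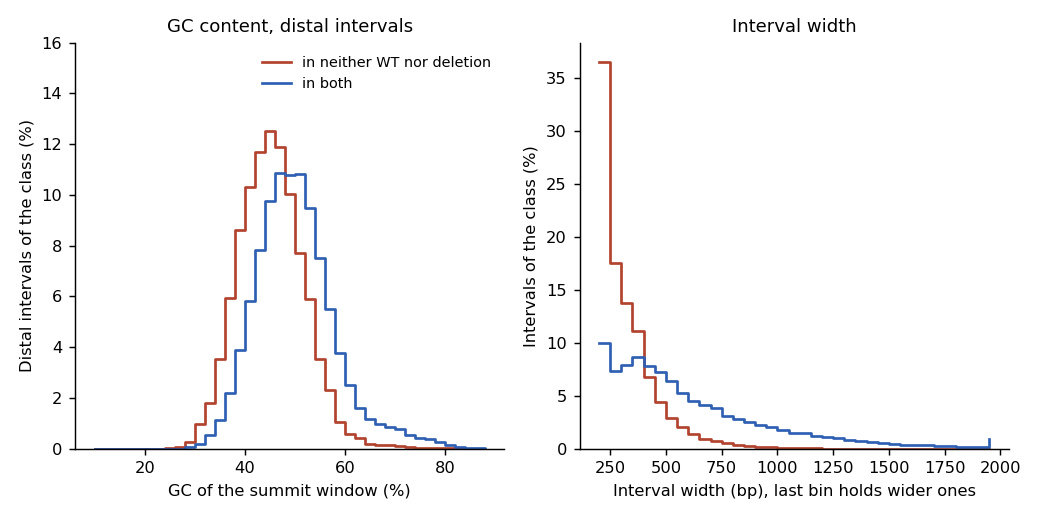
Distribution of GC content of the summit window for distal intervals (left, percent of the class against GC percent) and of interval width (right, percent of the class against bp). The intervals absent elsewhere centre on 45.3% GC and a width of 287 bp, those found in both on 49.3% and 508 bp.

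Motif letters were counted in the distal windows on both strands, and a base could count for more than 1 motif. A match describes letters and does not show binding. The largest relative difference was in the CTCF core motif, found in 0.404% of distal members (0.304% to 0.527%) and 2.98% of distal intervals found in both (2.80% to 3.17%). It was found in 0.846% of distal intervals found in 1 library and 1.88% of all distal intervals. In members it never exceeded 0.502% in a bin of fold enrichment, while in intervals found in both it was 6.02% in the weakest bin and 0.240% in the strongest. In those with a GC content of 45% to 50% it was 0.425% and 3.22%.

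The SOX letters, which SOX9 and its partners can bind, were found in 12.2% of distal members (11.6% to 12.7%). The share was 8.22% in distal intervals found in both (7.92% to 8.52%), 10.4% in those found in 1 library and 9.62% in all distal intervals. Members also stood above intervals found in both in the 3 bands of GC content. The shares were 14.0% against 11.2% from 40% to 45%, 10.7% against 9.14% from 45% to 50%, and 8.88% against 7.21% from 50% to 55%. The exact binomial intervals of the classes were apart only from 40% to 45%. From 45% to 50% and from 50% to 55% they overlapped, so a difference is not shown there. The share fell as GC content rose in both classes.

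The AP-1 letters, TGANTCA, were found in 38.5% of distal members, 35.3% of distal intervals found in both and 38.8% of all distal intervals, with 46.0% in intervals found in 1 library. They rose with fold enrichment, in members from 30.9% to 51.5% at 10 to 15, with 48.6% and 46.7% in the 2 sparse bins above, and in intervals found in both from 18.1% to 51.4% at 20 or more. Within bands of GC content members were lower, at 39.9% against 41.9%, 39.14% against 39.96% and 34.2% against 36.3%. The exact binomial intervals of the 2 classes overlapped in each band, so a reversal is not shown. At matched fold enrichment members were higher under 4 (30.9% against 18.1%) and from 4 to 6 (38.8% against 24.9%). Members were also higher from 6 to 10 (46.0% against 36.1%) and from 10 to 15 (51.5% against 45.1%). Intervals found in 1 library stood above members in these bins, at 32.7%, 42.5%, 52.2% and 57.6%. Their exact binomial intervals overlapped those of members under 4 and from 10 to 15. In the 2 sparse bins above, members and intervals found in both stood at 48.6% against 46.8% and 46.7% against 51.4%. There the exact binomial intervals overlapped. AP-1 letters were more frequent where no other library was near: 26.3% of distal members at most 500 bp from a WT or deletion interval held them, and 49.3% beyond 20 kb. The median GC content of members fell over the same range from 47.3% to 41.8%, and its part in this was not tested. RUNX letters stood at 25.5% and 24.6% (25.1% of all), TEAD at 20.6% and 22.1% (21.9%), the ETS letters CCGGAAG at 0.995% and 1.87% (1.49%) and the NFI palindrome at 0.0374% and 0.0366% (0.0370%).

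**Figure D5:**
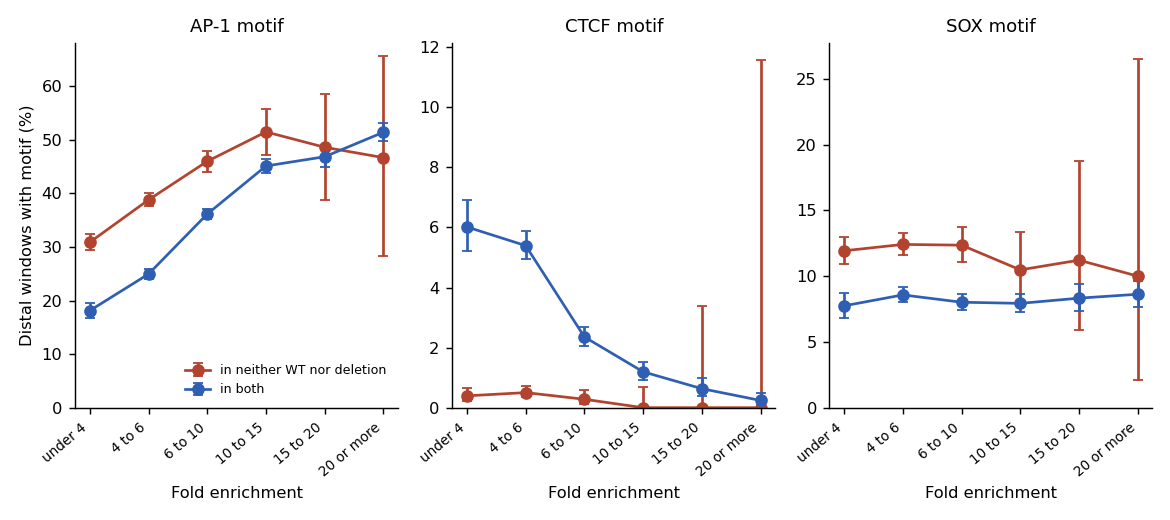
Percent of distal summit windows that hold the AP-1, CTCF or SOX letters (y axes) by fold enrichment in Cho replicate 1 (x axes), with 95% exact binomial intervals. The AP-1 share rises with fold enrichment up to 51.5% and 51.4%, the CTCF share is 6.02% in weak intervals found in both and at most 0.502% in those absent elsewhere, and the SOX share is 12.2% and 8.22% over all bins.

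Members were spread over all autosomes. Their share of a chromosome's intervals ranged from 14.96% on chromosome 19 (13.4% to 16.6%) and 15.3% on chromosome 11 to 22.7% on chromosome 3 (21.5% to 24.0%). The density was narrower in range, from 4.83 members per Mb on chromosome 7 to 6.62 on chromosome 3, while intervals found in both ran from 13.7 per Mb on chromosome 14 to 23.8 on chromosome 11. Another Cho replicate 1 interval lay within 1 kb of 31.9% of members and 22.9% of intervals found in both.

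Clusters were defined as 3 or more members, each within 10 kb of the next. There were 313, with 1115 members (7.92%, 7.48% to 8.37%), against 25.9% of intervals found in both, of which there are more per Mb. Of these clusters 231 had exactly 3 members, 28 had 5 or more and 227 overlapped a protein-coding gene. The largest, chr11:3027270-3096793, held 39 members over Sfi1, which encodes a centrosomal protein, and Drg1. Its fold enrichments ran from 2.96 to 5.91, 2 of its members were repeated in the genome and 2 matched Cho replicate 2, and it also contained 3 intervals found in both. The next, chr19:5818800-5843182, held 14 members over the long noncoding RNA gene Neat1, which builds nuclear paraspeckles. Their fold enrichments ran from 2.96 to 4.65 and 4 matched Cho replicate 2. Of all members 7.75% matched, and the match counts of single clusters were not tested. Clusters followed at Syn3 and Timp3, an inhibitor of matrix metalloproteinases (chr10:85767269-85814091, 12 members), at the matrix protein gene Thbs1 (chr2:117938069-117956098, 10 members, fold enrichment up to 10.6) and at Flrt2 (chr12:96929762-96952171, 8 members, up to 13.1).

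By nearest TSS, 6389 of 21281 autosomal protein-coding genes (30.0%) had at least 1 member, 3368 of them exactly 1 and 89 of them 10 or more. The genes with most members are named after their values were seen. Sfi1 had 39 members and 4 intervals found in both. Flrt2 had 28 and 13, Lphn3 24 and 8, Robo1 21 and 23, Efna5 20 and 22, and Zeb2 20 and 21. Flrt3 had 19 and 16, 3110001D03Rik 18 and 18, and Nr2f1 18 and 9. Members made up from 29.4% (Efna5) to 86.7% (Sfi1) of the intervals nearest to these genes, against 18.9% of all autosomal intervals. Flrt2 and Flrt3 encode transmembrane proteins that bind latrophilins such as the product of Lphn3, Robo1 is a Slit receptor, Efna5 an ephrin and Zeb2 a transcriptional repressor. Matches in Cho replicate 2 numbered 2 at Sfi1, 0 at Flrt2, 1 at Lphn3, 0 at Robo1 and 1 at Efna5. They numbered 2 at Zeb2, 2 at Flrt3, 0 at 3110001D03Rik and 1 at Nr2f1, while 7.75% of all members matched. A gene's count depends on how far its neighbours are. There were 489 genes with members and no interval found in both, with 695 members. The highest counts among them were at Lrrc40 (11 members), Thsd7b (10), D1Pas1 (7) and the glutamate receptor gene Grik2 (7).

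Members were also counted over lists of tissue genes. Of 20 cartilage genes found, 9 had a member (31 members, 82 intervals found in both) and 17 had an interval found in both, against 30.0% and 69.4% of all genes. Of 12 osteoblast and fibroblast genes 7 had one (20 members), of 10 muscle genes 2, of 8 blood and endothelial genes 3, and of 8 neural and epithelial genes 3. The lists are small, and no test was made on them.

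Among cartilage genes, Sox5, a cofactor of SOX9, had an intronic member of fold enrichment 13.9 (32 tags) 88485 bp into the gene, and its further members ran down to 3.38. Hapln1, which encodes the link protein that joins aggrecan to hyaluronan, had one of 12.7 (29 tags) in an intron. Its member 1824 bp from the TSS had 6.33 and was matched in Cho replicate 2, where its fold enrichment was 3.69. Col2a1, the main collagen of cartilage, had a member of 9.71 (22 tags) at -24441 bp from the TSS and one of 2.96 (6 tags) in an intron 14371 bp downstream. The intronic one matched a Cho replicate 2 summit of fold enrichment 2.71. Trps1 reached 7.60, Pitx1 6.76, Col9a1 6.33, Acan 4.22 and Sox6 3.38. Of the 31 members at cartilage genes these 2 alone, at Hapln1 and Col2a1, were matched within 150 bp, where 7.75% of all members were. The Acan member and one at -122220 bp from the Sox9 TSS lay 193 bp and 160 bp from a Cho replicate 2 summit, just beyond that tolerance.

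In the gene desert around Sox9, from 1.5 Mb upstream to 0.5 Mb downstream of its TSS, 14 of 65 Cho replicate 1 intervals were members, a share near the 18.9% of all autosomal intervals. The strongest lay downstream, at 250428 bp (chr11:112893756-112894331, fold enrichment 12.2, 28 tags) and at 68504 bp (chr11:112711716-112712208, 9.71, 22 tags). Another reached 8.02 in an intron of Slc39a11, and the other 11 lay between 2.96 and 4.65. One of 3.80 stood at -310670 bp (chr11:112332788-112332987), with its nearest deletion interval 770 bp away and its nearest WT interval 842 bp away. Of the 14, 1 matched Cho replicate 2, where 7.75% of all members did. It was an interval of fold enrichment 4.65 nearest to Gm11678.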

How the data were processed

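ATAC-Seq peak lists of 4 libraries of primary rib chondrocytes were used. Per the study methods, the authors trimmed reads with fastp, aligned them with Bowtie2 2.4.4, removed duplicates with Picard and called peaks with MACS2 2.2.4 at a q-value of 0.05. The submitters' processing notes list Picard 2.20.7, where the methods give another version, and also SAMtools 1.9. The deposited lists give 1 row per summit, with the fold enrichment (a ratio of pileup over background after adding 1 to each), the −log10 p-value, the −log10 q-value, a score made from the latter and the summit offset. Read totals are not given in the sources used here, so depth is known only through the background. Cho replicate 1, WT and the deletion list use mm9 (NCBIM37). The methods give mm9 for every library, but some Cho replicate 2 positions run past mm9 chromosome ends, so that list was treated as GRCm38. No coordinates were converted.

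From the deposited fold enrichment, 1 row per interval with the highest value was kept, on chromosomes 1 to 19. Overlaps used bedtools 2.31.1. TSSs, gene places and sequence came from the NCBIM37 genome and its GENCODE annotation, and GRCm38 start sites from RefSeq. Motif and repeat counts used the summit and 100 bases on either side; a window was repeated where the median copy number of 5 words of 32 bases exceeded 1. Summit pileups were solved from the fold enrichment, and 100% were whole within 0.01. Shares have 95% exact binomial (Clopper-Pearson) intervals. The scripts were tested on simulated data. Python 3.11.15, numpy 2.4.6, pandas 2.3.3, scipy 1.17.1, numba 0.67.0 and matplotlib 3.10.9 were used.

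Named members were the 12 of highest fold enrichment, the 10 highest within 1 kb of a TSS, the 10 highest matched in Cho replicate 2, those around Sox9 and at cartilage genes, the 5 largest clusters and the 3 nearest to the boundary on each side. A member among the strongest is not reported here. Members, lists and rules were chosen with earlier results of these data known. Alternatives changed the overlap, margin, q-value, reference library, windows and tolerances. Chromosomes X, Y and M were left out.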

Additional observations from a re-analysis of the deposited data

Results flagged for a closer look

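Outside the autosomes, which alone entered the comparisons, Cho replicate 1 also had intervals in neither WT nor deletion. On chromosome X there were 359 of 1787 intervals (20.1%), with a median fold enrichment of 4.65 and a highest of 18.2. On the mitochondrial chromosome both of the 2 intervals overlapped no WT and no deletion interval, with a median fold enrichment of 112861 and a highest of 116717. The 3 intervals on chromosome Y each overlapped a WT or deletion interval. Cho replicate 2 was not checked on these chromosomes. These values were listed because they lie outside the main measurement, and their cause was not tested.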

How the results depend on the processing

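Leaving out a Cho replicate was not possible, since every member comes from Cho replicate 1. No paired analysis was possible because only Cho carries replicate numbers and no result comes from a test. Without WT no value moved beyond its counting interval: 14251 intervals remained. The settings below moved values, and the cause was not tested beyond what each setting does by construction. Without the deletion library the members were 30674 (41.2% of intervals), with a median fold enrichment of 5.07, width of 318 bp and GC of 45.8%, 22.8% matched in Cho replicate 2 and 17.6% in clusters. With an overlap of at least 50% required, they were 38585 (51.8%), with medians of 5.91, 402 bp and 47.3% GC, 12.9% within 1 kb of a TSS, 31.3% matched and 27.5% in clusters. With no WT or deletion interval within 500 bp, the share was 15.4%, the width 290 bp, the GC 44.8%, and 1.68% lay at a TSS, 6.66% matched and 5.61% were in clusters. At a q-value below 1e-05, 6119 members (11.8%) had medians of 6.33, 362 bp and 44.8% GC, with 2.81% at a TSS, 7.29% matched, 2.19% in clusters and 0.311% repeated. At a fold enrichment of at least 10, chosen after seeing the data, 693 members (3.22%) had a width of 519 bp and a GC of 44.8%, with 1.73% at a TSS, 0.433% in clusters and 0.144% repeated. The TSS share was 10.5% within 2 kb and 9.66% over all annotated transcripts. The match was 3.37% at 50 bp (29.8% in intervals found in both), 15.3% at 500 bp (78.6%), 10.7% in genes of equal length (85.7%) and 10.1% within 10 kb of the TSS (62.1%). Clusters at 50 kb held 35.3% of members, the summit word alone gave 1.24% repeated, and whole intervals had a GC of 45.1%. Without the cluster at Sfi1, 7.66% of members were in clusters. Low tag counts limit the weak members, since the lowest rest on 6 tags. What the difference between builds does to the match was not tested.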
